A study of Homo sapiens with 6 samples.

Results

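The genes described here are 57 genes of cytoplasmic and nuclear mRNA decay, of 26613 genes with at least 1 count in any of 6 RNA-seq libraries of 293T cells. They were taken from a list of names: 21 genes of deadenylation, 20 of decapping and the 5′ to 3′ digestion that follows it, 12 of the RNA exosome and 4 of nonsense-mediated decay. A count was found for 55 of the 57. The gene identifiers of DCP1A and LSM2 were not matched in the tables, so their levels were not analysed here. All 55 matched genes passed the filter on low counts.

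293T cells descend from HEK293, a line made from human embryonic kidney, and take up nucleic acids readily. In 3 cultures the cells received a miR-941 duplex, which mimics the mature microRNA, at 10 nM in a lipid reagent, and in 3 cultures a scrambled oligonucleotide by the same route, called the mock group here. The labels state that concentration for the duplex and none for the control, so the oligonucleotides' sequence and their amount cannot be told apart as sources of a difference. All 6 libraries came from a single cell line grown and transfected alike. The labels call the transfections independent replicates, and beyond that nothing says how separate the cultures were.

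Most mRNAs are degraded from their ends. The poly(A) tail is shortened first, by the PAN2-PAN3 and CCR4-NOT complexes, after which the cap is removed by DCP2 and its activators and the body is digested by XRN1 from the 5′ end or by the exosome from the 3′ end. MicroRNAs use this pathway: Argonaute and its partner TNRC6 bind CCR4-NOT and PAN3 on the target mRNA. Nonsense-mediated decay, led by the helicase UPF1, sends mRNAs with an early stop codon to the same enzymes. The measurements below are mRNA levels of these factors and not the rate of decay of any transcript.

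The sequences below show how far the miR-941 seed could pair with these genes. The mature strand is printed from RefSeq (GRCh38.p14), with bases 2 to 8, the seed, in capitals.

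miR-941: cACCCGGCugugugcacaugugc

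The site complementary to these bases is GCCGGGT. Weaker sites keep CCGGGT, with or without the A that follows it in CCGGGTA. Each gene's longest annotated 3′ UTR in GENCODE release 29 (GRCh38) was searched on the sense strand. Of the 55 matched decay genes, 1 (1.82%) held GCCGGGT, against 634 of 13015 tested genes (4.87%). CCGGGTA without a G before it was held by 2 (3.64%), against 1.04%, and 4 (7.27%) held CCGGGT in any context, against 13.4%. These are all 5 matches, with the matched bases in capitals and 8 bases on each side.

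LSM4, GCCGGGT: tgagccagGCCGGGTttgccact
LSM4, CCGGGTA: gaaaggctCCGGGTAgcatctgt
UPF1, CCGGGTA: ggcatgcaCCGGGTAggtttccg
DCP2, CCGGGT: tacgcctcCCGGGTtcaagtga
DIS3, CCGGGT: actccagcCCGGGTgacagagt

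The LSM4 sites lie on the minus strand at chr19:18306441-18306447 and chr19:18306378-18306384, in exon 5 of 5, at bases 1017 and 1080 of the 1234 in the 3′ UTR. The UPF1 site lies at chr19:18868001-18868007 on the plus strand, at base 1484 of 1719 in exon 24 of 24. The DCP2 site lies at chr5:113016933-113016938 on the plus strand, at base 3449 of 7486 in exon 11 of 11. The DIS3 site lies at chr13:72754351-72754356 on the minus strand, at base 5439 of 7626 in exon 21 of 21. A match is a description of the sequence, and whether 293T cells use the longest 3′ UTR was not measured.

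The mRNAs of the decay machinery differed little between cells given the mimic and cells given the scrambled oligonucleotide. Of the 55 genes, CNOT7, DCP2, PATL1 and UPF3B rose and CNOT6L fell, and the other 50 did not pass the test. These 5 were 9.09% of the genes, against 13.0% of all 15607 genes tested. Of all genes tested 6.80% rose and 6.19% fell. Among genes averaging 20 CPM or more (CPM being counts scaled to the size of each library), 5 of 50 decay genes passed, against 18.7% of 9253 genes, of which 9.46% rose and 9.23% fell. UPF3B, with the largest rise, was higher by 20.3%, and CNOT6L fell by 16.1%. The test was edgeR's two-sided quasi-likelihood test, with a threshold of 0.05 on p values adjusted over all genes by the Benjamini-Hochberg method. DESeq2's Wald test called 1 of the 55 genes, UPF3B, against 8.70% of the 11673 genes to which it gave an adjusted p. In bulk RNA, a change in a few of the cells cannot be told apart from a smaller change in all of them.

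**Figure D1:**
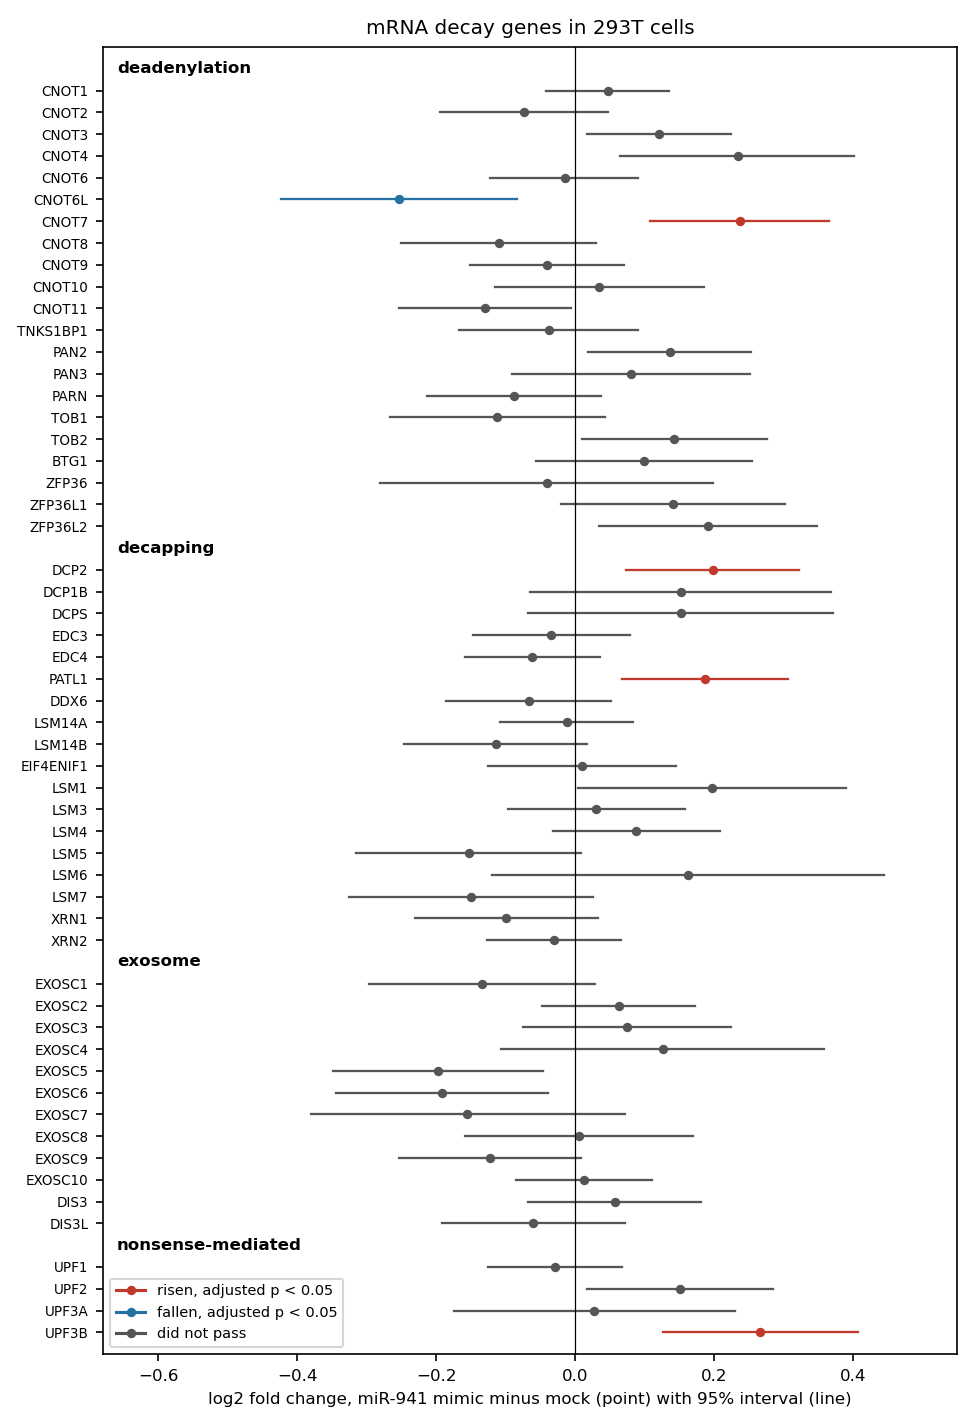
Each point is the log2 fold change of 1 decay gene, miR-941 mimic minus mock, and each line its 95% interval; red marks genes that rose, blue the gene that fell and grey genes that did not pass. All 55 intervals lie between −0.42 and 0.45.

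The intervals of the difference were narrow. They reached a median of 0.13 in log2 units to either side, and none reached a 1.5-fold change in either direction. In 40 of the 55 genes the whole 95% interval lay within 1.25-fold of no change. The lowest bound was that of CNOT6L (1.34-fold down) and the highest that of LSM6 (1.36-fold up), the gene with the fewest counts among the 55. The median log2 fold change of the 55 was 0.01, and that of all genes tested was 0.002. It lay above 0 in 29 and below 0 in 26 of the 55, and above 0 in 50.4% of all genes. The median size of the change, without its sign, was 0.11, against 0.12 over all genes and 0.10 over genes averaging 20 CPM or more.

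CCR4-NOT is the main cytoplasmic deadenylase. CNOT1 is its scaffold, CNOT6 or CNOT6L and CNOT7 or CNOT8 its catalytic subunits, and the remaining subunits bind RNA, adaptors or the scaffold. Of its 12 listed genes CNOT7 rose, CNOT6L fell and 10 did not pass, with a median log2 fold change of −0.03.

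CNOT7 read 75.8, 75.7 and 79.0 CPM in the mimic libraries and 62.9, 63.8 and 69.2 CPM in the mock libraries. Every mimic library lay above every mock library. The log2 fold change was 0.24 ± 0.06 (SE), with an adjusted p of 0.00736. It was 0.068 without mock replicate 1 and 0.0573 by DESeq2's Wald test, which does not pass. The gene lies on chromosome 8 at 17224964 to 17246878, minus strand. Its exons share 243 bases with those of VPS37A on the opposite strand, which was counted at 55.0% of its level with a log2 fold change of −0.10, and the sources used here do not say whether reads were counted by strand.

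CNOT6L read 33.6, 30.3 and 29.7 CPM after the mimic and 37.6, 36.8 and 37.5 CPM in the mock group, and again the groups did not overlap. Its log2 fold change was −0.25 ± 0.085, with an adjusted p of 0.0373. The call was lost without any 1 of 5 libraries, all but mimic replicate 1, with adjusted p values of 0.0757 to 0.112, and by DESeq2 (0.157). The gene lies on chromosome 4 at 77713387 to 77819615, minus strand, and its pseudogene CNOT6LP1 was counted at 6.42% of its level.

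The scaffold CNOT1 was the most abundant of the 55 by counts, at 575, 564 and 603 CPM against 559, 575 and 553 CPM. The groups overlapped, and the 95% interval of its log2 fold change ran from −0.04 to 0.14. CNOT3, at 0.12 ± 0.05, and CNOT4, a ubiquitin ligase bound less firmly to the complex, at 0.23 ± 0.08, lay higher in every mimic library but did not pass (adjusted p = 0.122 and 0.0547). CNOT4 passed without mimic replicate 2 (0.0425) and with only genes of at least 5 CPM tested (0.0478). CNOT8 at −0.11 ± 0.07 and CNOT11 at −0.13 ± 0.06 lay lower in every mimic library and did not pass (adjusted p = 0.343 and 0.171). In CNOT2 (−0.07), CNOT6 (−0.015), CNOT9 (−0.04), CNOT10 (0.035) and TNKS1BP1 (−0.04), the groups overlapped.

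**Figure D2:**
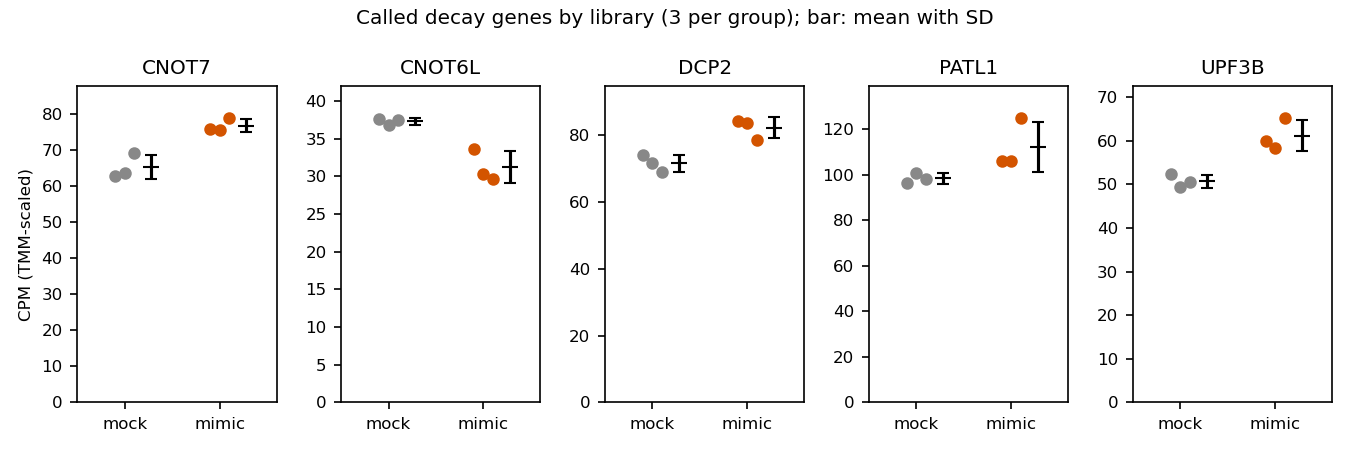
CPM in each of the 3 mock and 3 mimic libraries for the 5 genes that passed, with the mean and SD beside the points and axes from 0. In each gene the mimic libraries lie on one side of all mock libraries, and in PATL1 mimic replicate 3, at 125 CPM, stands above the other mimic libraries.

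The catalytic subunits exist as alternative pairs, so their ratios were taken within each library, per kilobase of annotated exon. CNOT7 stood at 0.501, 0.533 and 0.530 times CNOT8 in the mimic libraries and at 0.393, 0.387 and 0.456 times in the mock libraries. CNOT6 stood at 5.25, 5.95 and 6.34 times CNOT6L after the mimic and at 4.82, 5.12 and 4.81 times in the mock group. The ratio was higher in all 3 mimic libraries in both pairs, by 0.343 for CNOT7 to CNOT8 and 0.245 for CNOT6 to CNOT6L in log2 units. An exact two-sided permutation test gave 0.1 for each, the smallest p that 3 against 3 can give, and 0.225 with Benjamini-Hochberg adjustment over the 9 pairs compared, so neither passed.

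The ratio of TOB1 to TOB2 and that of UPF3A to UPF3B were lower in every mimic library, by −0.25 and −0.24 in log2 units and with the same p values. In the other 5 pairs, DIS3 to DIS3L (0.12), LSM14A to LSM14B (0.10), XRN1 to XRN2 (−0.07), PAN2 to PAN3 (0.06) and DIS3 to EXOSC10 (0.05), the exact p lay between 0.2 and 0.7. DIS3 stood at 0.602 to 0.664 times DIS3L after the mimic and at 0.559 to 0.608 times in the mock group.

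**Figure D3:**
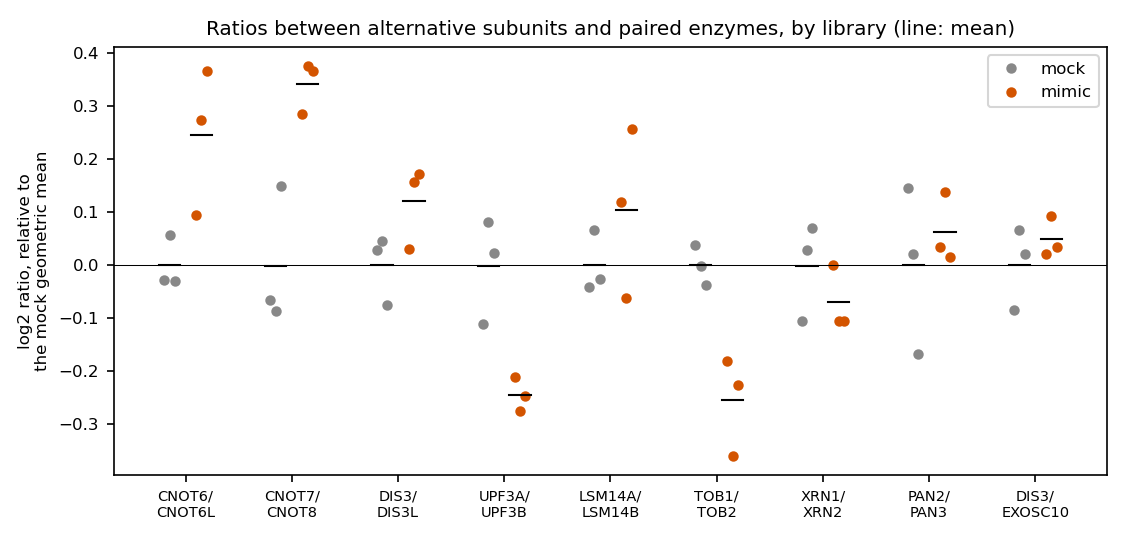
Log2 ratios of 9 pairs of genes, per kilobase of exon, in each library relative to the geometric mean of the mock group; grey points are mock, orange mimic, and lines are means. The groups separate in CNOT6/CNOT6L, CNOT7/CNOT8, UPF3A/UPF3B and TOB1/TOB2.

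None of the other 3 deadenylase genes passed. PAN2, the catalytic subunit that trims long tails, read 105, 102 and 102 CPM after the mimic against 95.8, 99.1 and 85.4 CPM. The groups did not overlap, but at 0.14 ± 0.06 the difference did not pass (adjusted p = 0.126). Its exons share 114 bases with those of CNPY2 on the same strand, a gene counted at 98.1% of that of PAN2, which makes the count of PAN2 less certain. PAN3, which anchors PAN2 to mRNA, had a log2 fold change of 0.08 ± 0.09, and PARN, a deadenylase that also matures small RNAs, of −0.09 ± 0.06.

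The recruiters bring CCR4-NOT to particular mRNAs: TOB1, TOB2 and BTG1 bind its CNOT7 or CNOT8 subunit, and ZFP36, ZFP36L1 and ZFP36L2 bind AU-rich elements. None of the 6 passed, and their median was 0.12. ZFP36L2, at 0.19 ± 0.08, had the smallest p of the 6 (adjusted p = 0.102), reading 45.1, 42.7 and 51.0 CPM against 39.2, 41.7 and 40.3 CPM. ZFP36L1 (0.14 ± 0.08) was also higher in all 3 mimic libraries, whereas in TOB2 (0.14 ± 0.07), BTG1 (0.10 ± 0.08), ZFP36 (−0.04 ± 0.12) and TOB1 (−0.11 ± 0.08) the groups overlapped. TOB1 passed without mimic replicate 3, at −0.22 with an adjusted p of 0.0386.

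Among the genes of decapping and 5′ to 3′ digestion, DCP2 and PATL1 rose and 16 of 18 did not pass, with a median of 0.00. DCP2, the enzyme that removes the cap, read 84.3, 83.5 and 78.5 CPM after the mimic and 73.9, 71.7 and 69.0 CPM in the mock group. PATL1, which links the LSM ring to the decapping enzyme, read 106, 106 and 125 CPM against 96.3, 101 and 98.0 CPM. In both genes every mimic library was above every mock library.

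The log2 fold change of DCP2 was 0.20 ± 0.06 (adjusted p = 0.0236) and that of PATL1 0.19 ± 0.06 (adjusted p = 0.0254). Without mimic replicate 3 PATL1 was at 0.11, with an adjusted p of 0.24, and its adjusted p was 0.12 without mock replicate 1 and 0.0886 without mock replicate 3. DCP2 did not pass without mimic replicate 1 or 2 (0.119 and 0.0785) or mock replicate 2 or 3 (0.0647 and 0.119), and neither gene passed by DESeq2 (0.122 and 0.134). DCP2 lies on chromosome 5 at 112976702 to 113020970, plus strand, and PATL1 on chromosome 11 at 59636716 to 59668980, minus strand. No counted gene has exons overlapping theirs in GENCODE release 29.

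The other 8 genes of the decapping enzymes and activators did not pass. DCP1B, a cofactor of DCP2, and DCPS, which degrades the cap left by 3′ to 5′ decay, were both at 0.15 ± 0.11, with overlapping groups in DCP1B and every mimic library higher in DCPS. EDC4, the scaffold of the decapping complex, was at −0.06 ± 0.05 and EDC3, an enhancer of decapping, at −0.03 ± 0.06. The helicase DDX6, which bridges CCR4-NOT and the decapping factors, read 119, 117 and 140 CPM against 121, 136 and 136 CPM, with overlapping groups and a log2 fold change of −0.07 ± 0.06. LSM14A (−0.01) and EIF4ENIF1 (0.01), both partners of DDX6, had overlapping groups, and LSM14B (−0.11 ± 0.07) was lower in every mimic library.

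The LSM ring binds shortened tails and recruits the decapping factors. None of its 6 matched genes passed. LSM4, the gene with a GCCGGGT site, read 150, 170 and 136 CPM in the mimic libraries and 146, 135 and 150 CPM in the mock libraries. The groups overlapped, with a log2 fold change of 0.09 ± 0.06 and a 95% interval from −0.03 to 0.21. LSM4 passed as risen without mimic replicate 3, at 0.16 with an adjusted p of 0.0267.

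LSM1, the subunit that marks the cytoplasmic ring, was higher in every mimic library at 0.20 ± 0.10 (adjusted p = 0.186). LSM5 was at −0.15 ± 0.08, LSM7 at −0.15 ± 0.09, LSM3 at 0.03 ± 0.06 and LSM6 at 0.16 ± 0.14. LSM7 passed without mimic replicate 2, at −0.30 with an adjusted p of 0.0183. LSM6 was the least abundant of the 55, at 13.5, 14.0 and 15.7 CPM against 16.0, 12.7 and 9.18 CPM. Exons of LSM1, LSM3 and LSM7 overlap those of BAG4, XPC and SPPL2B on the opposite strand, by 198, 318 and 6 bases. The partners were counted at 94.1%, 72.3% and 111% of the levels of these LSM genes. XPC and SPPL2B rose by 0.28 and 0.29 in log2 units (adjusted p = 0.00385 and 0.00596). LSM7 shares only those 6 bases of its 1.698 kilobases of exon. The part of XPC reads in the value of LSM3 was not tested.

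Both 5′ to 3′ exonucleases had overlapping groups. XRN1, the cytoplasmic enzyme, read 66.5, 64.8 and 64.1 CPM against 65.1, 70.9 and 73.8 CPM, a log2 fold change of −0.10 ± 0.07. XRN2, the nuclear enzyme, read 191, 200 and 197 CPM against 200, 199 and 201 CPM, with a 95% interval from −0.13 to 0.07.

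The exosome is a ring of 9 core subunits with the nucleases DIS3 or DIS3L and EXOSC10 attached. None of its 12 genes passed the test. By unadjusted p, 2 were under 0.05, the core subunits EXOSC5 and EXOSC6, as were 15 of the 55 decay genes and 25.5% of all genes. DESeq2 called none of the 12. EXOSC5 read 53.1, 45.3 and 43.3 CPM after the mimic against 53.8, 52.1 and 57.4 CPM, and EXOSC6 read 43.4, 39.7 and 45.6 CPM against 48.6, 47.1 and 51.3 CPM. The groups overlapped in EXOSC5 and not in EXOSC6. Their log2 fold changes were −0.20 ± 0.08 and −0.19 ± 0.08, with adjusted p of 0.0756 and 0.0886.

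EXOSC5 passed without mimic replicate 1 (−0.295, adjusted p = 0.0153), and EXOSC6 (−0.24, adjusted p = 0.037) and EXOSC9 (−0.20, adjusted p = 0.0311) without mimic replicate 3. Over the 9 core genes the median log2 fold change was −0.12, with 5 below and 4 above 0, against 0.002 over all genes tested. By library, relative to the mock mean, the core median was −0.035, −0.099 and −0.046 in the mimic group. It was −0.01, −0.057 and 0.004 in the mock group, so the libraries overlapped. EXOSC7 at −0.155 ± 0.11 and EXOSC1 at −0.13 ± 0.08 were lower in every mimic library. EXOSC9 at −0.12 ± 0.07, EXOSC8 at 0.01 ± 0.08, EXOSC2 at 0.06 ± 0.06, EXOSC3 at 0.075 ± 0.075 and EXOSC4 at 0.13 ± 0.12 had overlapping groups. The nucleases lay close to 0: EXOSC10 was at 0.01 ± 0.05, DIS3 at 0.06 ± 0.06 and the cytoplasmic DIS3L at −0.06 ± 0.07. DIS3, with 1 CCGGGT match, read 79.0, 82.8 and 86.4 CPM against 75.7, 85.1 and 77.4 CPM. Exons of EXOSC3, EXOSC5, EXOSC8 and EXOSC9 overlap those of DCAF10, BCKDHA, SUPT20H and CCNA2 on the opposite strand, by 96, 20, 302 and 254 bases. The partners were counted at 113%, 101%, 198% and 160% of the levels of these exosome genes, and none of the partners passed. EXOSC3 also shares 150 exon bases on the same strand with ENSG00000255872, counted at 212% of its level, which makes the count of EXOSC3 less certain.

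Of the 4 genes of nonsense-mediated decay, UPF3B rose and 3 did not pass. UPF3B, an X-linked gene whose product bridges UPF2 and the exon junction complex, read 60.0, 58.4 and 65.2 CPM after the mimic and 52.4, 49.4 and 50.5 CPM in the mock group. The groups did not overlap. The log2 fold change was 0.27 ± 0.07, with an adjusted p of 0.00547, and it was between 0.00494 and 0.0484 in all 11 alternative analyses, DESeq2 included. UPF3B lies on chromosome X at 119805311 to 119852998, minus strand, and no counted gene has exons overlapping its own.

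UPF2, which joins UPF1 to UPF3B, was at 0.15 ± 0.07 (adjusted p = 0.137), reading 69.5, 71.8 and 80.4 CPM against 67.8, 69.9 and 60.8 CPM. UPF1, with 1 CCGGGTA match, read 220, 224 and 202 CPM against 223, 216 and 221 CPM, and its 95% interval ran from −0.13 to 0.07. UPF3A, the paralog that can stand in for UPF3B, was at 0.03 ± 0.10, and 3 pseudogenes named for it were counted at 2.07% to 7.44% of its level.

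The 4 groups can be set side by side. The share that passed was 2 of 21 in deadenylation (9.52%), 2 of 18 in decapping (11.1%), 0 of 12 in the exosome and 1 of 4 in nonsense-mediated decay, against 13.0% of all genes tested and 18.7% of those averaging 20 CPM or more. Their median log2 fold changes were 0.035, 0.00, −0.03 and 0.09. Relative to the mock mean, the median of the 21 deadenylation genes was 0.01, 0.01 and 0.10 in mimic replicates 1 to 3. For the 18 decapping genes the corresponding medians were −0.01, −0.02 and 0.07, for the 12 exosome genes −0.03, −0.08 and −0.02, and for the 4 genes of nonsense-mediated decay 0.05, 0.07 and 0.20. Mimic replicate 3 was thus the highest mimic library in each group. On the second principal component of all genes this library lay at −18.9, and the other mimic libraries at 8.44 and 13.6. Its part in the group medians was not tested. In mock replicates 1 to 3 these medians were 0.011, 0.015 and −0.024 for deadenylation and −0.004, 0.009 and 0.01 for decapping. They were −0.011, −0.025 and −0.016 for the exosome and 0.028, 0.006 and 0.0 for nonsense-mediated decay. The ranges of the mimic and mock libraries overlapped except in nonsense-mediated decay. The mimic libraries all lay on one side of the mock libraries in 18 of the 55 genes, 11 higher and 7 lower, and in 28.3% of all genes, 14.4% higher and 13.9% lower.

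Levels of different genes were compared per kilobase of annotated exon, in the mock group. LSM14A (62.9 CPM per kilobase), XRN2 (58.2), CNOT1 (51.8) and LSM4 (47.4) were highest, in that order, and no library of one overlapped the next. LSM6 (3.16), UPF3A (3.98), CNOT6L (3.98) and DCP1B (4.17) were lowest, and their libraries overlapped. Along the whole order, 39 of 54 neighbouring genes overlapped. XRN2 stood 9.97 times above XRN1. Within CCR4-NOT the levels spanned 13.0-fold, from CNOT1 to CNOT6L, and within the exosome core 8.49-fold, from EXOSC5 (36.6) to EXOSC7 (4.31). EXOSC10 (34.8) stood above DIS3L (12.4) and DIS3 (7.33), and UPF1 (25.6) above UPF3B (16.5), UPF2 (11.2) and UPF3A (3.98). The exon length joins all annotated transcripts of a gene, so genes with long or many alternative exons read low on this scale.

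**Figure D4:**
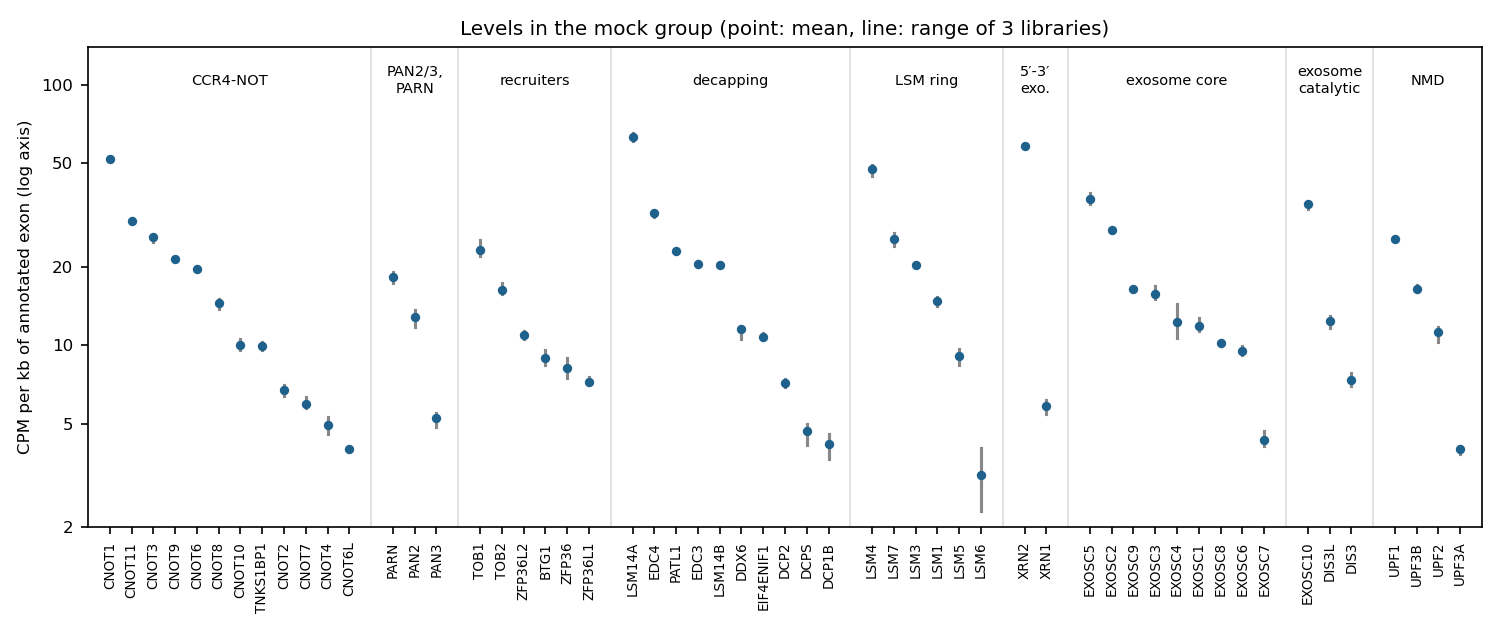
Mean CPM per kilobase of annotated exon in the mock group on a log axis, ordered within each subgroup; lines span the 3 libraries. CNOT1, LSM14A, LSM4 and XRN2 lead their subgroups and LSM6 is lowest.

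Of 63 other decay genes listed beside these, 59 were matched and tested. Of these 7 rose and 3 fell, together 16.9%, against 13.0% of all genes tested. Of those averaging 20 CPM or more, 10 of 54 passed, against 18.7% of all such genes, and over the 59 the median log2 fold change was 0.015. In the exosome cofactor list 1 of 15 passed: TENT4A, a poly(A) polymerase that can extend and guard tails, read 107, 107 and 101 CPM against 85.5, 86.6 and 86.7 CPM, a log2 fold change of 0.29 ± 0.06 with an adjusted p of 0.000193. Among 5 cap and decapping genes 1 passed: PNRC1, a DCP1-DCP2 binding protein, read 61.8, 58.3 and 57.6 CPM against 46.3, 45.6 and 49.3 CPM, a log2 fold change of 0.34 ± 0.07. In both genes every mimic library was above every mock library.

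Among the further genes of tails and deadenylation, PABPC1, the cytoplasmic poly(A)-binding protein, rose by 0.15 ± 0.05 (adjusted p = 0.0245). RC3H2, a roquin that binds stem-loops, fell by 0.17 on the log2 scale (adjusted p = 0.0161). Both calls ended under DESeq2 (0.0938 and 0.0708), without mimic replicate 1 (0.0839 and 0.131) and without mock replicate 3 (0.146 and 0.055). PABPC1 also did not pass without mimic replicate 3 (0.137) or mock replicate 1 (0.0671), nor RC3H2 without mock replicate 2 (0.125).

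In the list of 16 further genes of nonsense-mediated decay and the exon junction complex, 4 rose and 1 fell (31.2%), against 13.0% of all genes tested and 18.7% of those averaging 20 CPM or more, a level that all 16 reached. CASC3, a core protein of the exon junction complex, averaged 194 ± 10.4 CPM (SD, n = 3) after the mimic and 160 ± 3.07 CPM in the mock group, a log2 fold change of 0.28 ± 0.05. RNPS1, a protein peripheral to that complex, rose by 0.19 ± 0.05, DHX34, a helicase that binds UPF1, by 0.25 ± 0.06 and SMG9, a regulator of the kinase that phosphorylates UPF1, by 0.25 ± 0.06. These 4 passed in every alternative analysis. NBAS, which also acts in transport to the endoplasmic reticulum and is named here although outside the rule for named genes, fell by 0.25 on the log2 scale (adjusted p = 0.0164), and did not pass under DESeq2 (0.0936), without mimic replicate 3 (0.0921) or without mock replicate 1 or 3 (0.0563 and 0.109). The kinase SMG1 (0.04 ± 0.05), SMG5 (0.03 ± 0.05), SMG6 (0.015 ± 0.06) and EIF4A3 (0.00 ± 0.05) did not pass.

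Transcripts known to be degraded by nonsense-mediated decay were listed as well. Of 16 tested, GAS5 rose, SNHG16 and CDKN1A fell and 13 did not pass, with a median of 0.06. The share that passed was 18.8%, against 13.0% of all genes tested and 18.7% of those averaging 20 CPM or more. GAS5, a small nucleolar RNA host transcript, read 81.0, 70.3 and 63.4 CPM against 63.1, 53.7 and 53.9 CPM, and its log2 fold change of 0.33 ± 0.08 did not pass without mimic replicate 1 (adjusted p = 0.0559). SNHG16, another host transcript, was at −0.22 ± 0.07 and lost its call without any 1 of 5 libraries (0.0514 to 0.0923), all but mimic replicate 3, and by DESeq2 (0.101). CDKN1A, also a target gene of p53, was at −0.34 ± 0.05.

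Total counts were 7651046, 7168077 and 6401918 in the mimic libraries and 7405330, 7178783 and 6079420 in the mock libraries, where 3 counts correspond to 0.392 to 0.493 CPM. Of 8 genes listed as present in HEK293 cells, 6 were matched and tested, from PAX2 at 6.57 CPM to VIM at 982 CPM in the mock group. Of these 6, NEFM, a neurofilament, rose by 0.55 ± 0.065 in log2 units and KRT18, a keratin, by 0.18 ± 0.05 (adjusted p = 9.13e-10 and 0.00741), and 4 did not pass. Of 8 markers of other cell types, 5 were matched, none passed the filter, and none had a mean over 0.703 CPM in either group (GFAP). Exons of 22 of the 55 decay genes overlap those of another counted gene, and the partner reached 25% or more of the gene's level in 13 of them.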

How the data were processed

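Gene-level RNA-seq was analysed for 6 libraries of 293T cells, grouped by their titles into 3 mimic and 3 mock. Per the labels' protocols, ribosomal RNA was removed from Trizol extracts of total RNA before single-end sequencing. The authors deposited raw counts per Ensembl gene, with no normalization. STAR, edgeR and hg19 are named in the submitters' processing notes, and the sources used here do not give the counting program, annotation or use of strand. Genes that a table does not list were set to 0. Symbols came from a table of gene names (25141 of 26613 genes), and coordinates, exon lengths and 3′ UTRs from GENCODE release 29, which is on GRCh38 and not on the authors' build. MicroRNA sequence is from RefSeq, GRCh38.p14.

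Counts were filtered with filterByExpr by group (15607 genes, 99.7% of counts) and scaled with TMM factors of 0.994 to 1.01. The test was edgeR 4.0.16's quasi-likelihood test with robust dispersions on all tested genes (R 4.3.3). Standard errors and 95% intervals come from its test statistic. CPM values carry the TMM factors. The alternatives were DESeq2 1.42.0, RLE factors, 2 other filters, a replicate block and leaving out each library. On simulated counts of this comparison (15614 genes), 58% of genes changed 1.25-fold and 90% of those changed 1.5-fold were recovered, with 10 false calls. The changed genes were drawn from all but those with the lowest counts, and every gene was given the same dispersion. Intervals rest on the spread between 3 libraries per group, which the fit pulls in each gene towards the trend over all genes tested. Their width is therefore not set by a gene's own libraries alone. Replicate pairs differed by 1.29 to 2.51 times the variation of sampling, so none was counted as a duplicate.

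The decay genes and lists were chosen with earlier results of these data known. The rule for named genes was: all decay genes that passed, the 2 with the smallest p in subgroups with none, 8 scaffold or catalytic genes, genes with a seed match, and up to 4 that passed in each further list. The remaining decay genes are given for completeness. Some genes of the further lists are not reported here.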

Additional observations from a re-analysis of the deposited data

How the results depend on the processing

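With RLE factors, no filter on low counts or the replicate block, 4 decay genes rose and 1 fell, as in the main analysis, and with only genes of at least 5 CPM tested 5 rose and 1 fell. Replicate numbers did not pair the libraries (correlations of deviations of 0.044, −0.051 and −0.017 for replicates 1 to 3, and 2 of 6 libraries were closest to their own number), and the replicate block gave 1819 called genes against 2027. DESeq2 called 1 decay gene as risen (UPF3B) and 0 as fallen, 1015 genes in all and 6 of the other decay genes against 10. Leaving out each library in turn gave 2 to 4 risen decay genes (2 without mock replicate 1 and without mock replicate 3) and 0 to 3 fallen (3 without mimic replicate 3), 6 to 9 of the other decay genes and 1302 to 2061 of all genes. The decay genes that lost their call under DESeq2 kept close log2 fold changes with larger standard errors. These were 0.113 against 0.085 for CNOT6L, 0.084 against 0.064 for CNOT7, 0.081 against 0.063 for DCP2 and 0.079 against 0.059 for PATL1. The cause of the lower counts under DESeq2 was not tested, and leaving out a library leaves fewer samples.

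The sign was not fixed in 11 decay genes that did not pass. Leaving out each library in turn gave log2 fold changes of −0.043 to 0.005 for CNOT6, −0.015 to 0.10 for CNOT10, −0.109 to 0.033 for ZFP36, −0.061 to 0.031 for LSM14A, −0.033 to 0.074 for EIF4ENIF1 and −0.04 to 0.077 for LSM3. The ranges were −0.002 to 0.375 for LSM6, −0.037 to 0.04 for EXOSC8, −0.029 to 0.033 for EXOSC10, −0.06 to 0.013 for UPF1 and −0.015 to 0.07 for UPF3A. EXOSC8 was also at −0.002 with no filter on low counts. In the simulation, 58% of genes changed 1.25-fold were recovered. It gave each fold to 50 genes, against 2027 genes called in the data, so that share need not hold for the decay genes. Among these, DCP2 and PATL1 passed at 1.15-fold and 1.14-fold, while the interval of LSM6, with the fewest counts, reached 1.36-fold.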
